A study of Mus musculus with 4 samples.

Results

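The 7 genes that write, maintain and remove DNA methylation, Dnmt3l, Dnmt3a, Dnmt3b, Dnmt1, Uhrf1, Tet1 and Tet2, and the long noncoding RNA Eprn (ephemeron, D630045M09Rik) were located relative to YAP binding sites in undifferentiated mouse ESCs. The 8 genes were chosen by name and not by a rule on measured values, but earlier results of these data were known. They were taken out of 22368 genes, which were the 22367 protein-coding genes on assembled chromosomes and Eprn. YAP is the transcriptional coactivator at the end of the Hippo pathway, and the study asked of Dnmt3l and Eprn whether YAP targets them directly. Chromatin from E14Tg2a cells, a male feeder-independent mouse ESC line labelled as pluripotent, was precipitated with a rabbit polyclonal anti-YAP antibody in 2 replicates, and 2 input samples accompanied them. The cells of all 4 samples carried no added treatment or allele in the labels, and the replicates came from independent experiments. The peak lists of the 2 anti-YAP samples were read here, and the input samples were not analysed here.

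Methylation of cytosine in CpG dinucleotides is set up by the de novo methyltransferases Dnmt3a and Dnmt3b, which Dnmt3l, a relative without catalytic activity, binds and stimulates. Dnmt1 copies the pattern onto the new strand at replication, and Uhrf1 brings it to hemimethylated DNA, while the dioxygenases Tet1 and Tet2 oxidise 5-methylcytosine and so open the way to its removal. Naive ESCs hold little methylation and gain it as they leave the naive state. Eprn is already expressed in undifferentiated ESCs and is transiently upregulated in this transition. The study grew its ESCs in serum with LIF (leukemia inhibitory factor), and their methylation was not analysed here. YAP does not bind DNA by itself but is carried there by TEAD factors, whose core motif is CATTCC, or GGAATG when read on the other strand.

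No YAP peak lay over or within 5 kb of the transcription start site (TSS) of any of the 8 genes in either list, where 0.617% of all coding genes had such a peak in replicate 1 and 0.165% in replicate 2. Replicate 1 had 447 peaks from 22696949 unique tags and replicate 2 had 154 peaks from 14965024, and 411 and 144 of them were on assembled chromosomes. The lowest score, which MACS derives from the negative log10 of the p-value, was 50.01 and 50.07, and the smallest peak held 18 and 15 tags, so that a weaker site at any of the genes would not be listed. At a relaxed threshold the study reported a YAP peak in an intron of Eprn. By quantitative PCR of precipitated DNA it found YAP there, dependent on TEAD factors, and called Eprn a direct target. It reported no binding near Dnmt3l and proposes an indirect route for that gene. Peaks called at a more relaxed threshold were not analysed here. The peak files hold no expression values, so the identity of the cells could not be checked against markers.

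The sequences on which the results below turn are shown in mm9, with CATTCC or GGAATG in capitals unless stated otherwise. They are the 61 bases around the summits of the 3 peaks within 500 kb of a gene, the promoter with a TEAD core motif upstream of the gene with a peak within 500 kb in both lists, and the promoter and the motif sites of Eprn. The summit of the Uhrf1 peak of replicate 2 lay inside a repeat tract, so its 61 bases are all repeat.
Peak of replicate 1 downstream of Dnmt1, chr9:20682934-20682994, plus strand: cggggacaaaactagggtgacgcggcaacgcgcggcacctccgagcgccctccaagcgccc
Peak of replicate 1 downstream of Uhrf1, chr17:56753867-56753927, plus strand: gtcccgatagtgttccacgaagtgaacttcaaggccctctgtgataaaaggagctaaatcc
Peak of replicate 2 upstream of Uhrf1, chr17:56339440-56339500, plus strand: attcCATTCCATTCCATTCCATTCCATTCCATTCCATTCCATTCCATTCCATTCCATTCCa
Uhrf1 promoter, 250 bases upstream of the RefSeq TSS, chr17:56442510-56442759, plus strand: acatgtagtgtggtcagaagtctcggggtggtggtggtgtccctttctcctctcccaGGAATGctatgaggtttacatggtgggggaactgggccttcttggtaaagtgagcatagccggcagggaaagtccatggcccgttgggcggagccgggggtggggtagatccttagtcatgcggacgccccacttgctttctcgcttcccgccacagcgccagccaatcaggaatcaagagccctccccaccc
Eprn promoter, chr13:73484783-73485082, minus strand, with the first 50 transcribed bases in capitals: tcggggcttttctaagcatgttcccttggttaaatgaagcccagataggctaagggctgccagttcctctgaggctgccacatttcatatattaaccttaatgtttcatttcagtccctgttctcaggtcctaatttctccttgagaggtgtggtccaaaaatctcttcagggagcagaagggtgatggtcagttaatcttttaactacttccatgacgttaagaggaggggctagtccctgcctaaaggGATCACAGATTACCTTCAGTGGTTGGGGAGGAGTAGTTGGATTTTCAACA
Eprn motif site near the start, chr13:73484609-73484638, minus strand: agagccggggtgGGAATGggggccgagagg
Eprn motif site further in, chr13:73483800-73483829, minus strand: tgtgtggaaaggCATTCCaggaattccaga

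Within 500 kb of the TSS, the window in which the study linked peaks to genes, 2 of the 8 genes had a peak in replicate 1 and 1 in replicate 2. The background was 15.6% of all coding genes in replicate 1 (3480 of 22367), 5.41% in replicate 2 (1210 genes) and 17.4% in either list (3896 genes). The genes were Dnmt1 and Uhrf1 in replicate 1 and Uhrf1 in replicate 2. With 8 genes, a difference of 1 gene moves the share by 12.5 percentage points, so the counts do not set these genes apart from coding genes in general. Each of the 3 peaks was in 1 list only, and none overlapped a peak of the other replicate. Both genes belong to the maintenance machinery, and the de novo methyltransferases, their cofactor Dnmt3l, the Tet genes and Eprn had no peak in this window. With 3 peaks, each in 1 list, no split of the genes by role can be read from this.

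Narrower and wider windows were read in the same way. Within 100 kb, Dnmt1 alone had a peak in replicate 1, where 4.02% of coding genes did, and none of the 8 genes did in replicate 2, where 1.48% did and Uhrf1 missed the window by less than 3 kb. Within 1000 kb, Dnmt3a joined Dnmt1 and Uhrf1 in replicate 1 (3 of 8 genes, background 27.4%) and Uhrf1 in replicate 2 (2 of 8 genes, background 10%, 2247 of 22367 genes). In either list the background was 0.711% of coding genes at 5 kb, 4.66% at 100 kb and 30.3% at 1000 kb.

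**Figure D1:**
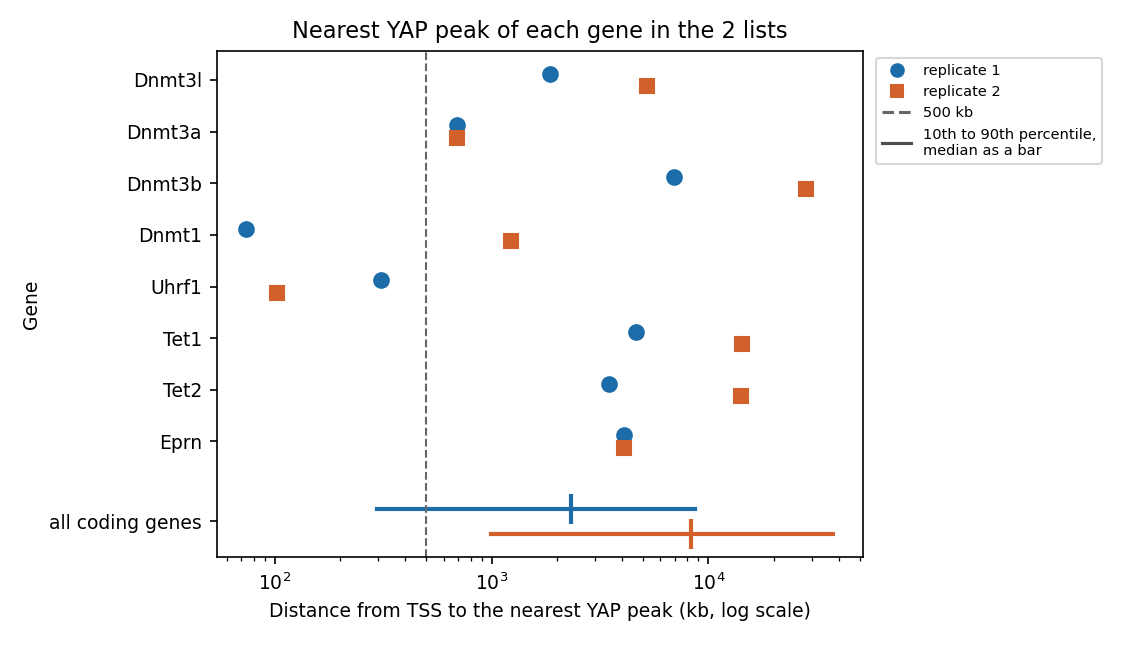
Distance in kb (log scale) from the TSS of each gene to the edge of the nearest peak in the replicate 1 and replicate 2 lists, with the 500 kb window as a dashed line and, for all coding genes, the 10th to 90th percentile as a line with the median as a bar. Dnmt1 and Uhrf1 lay at 73.6 and 310 kb in replicate 1, Uhrf1 lay at 103 kb in replicate 2, and the other values were at or above 695 kb.

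The median distance of the 8 genes was 2680 kb in replicate 1, where they ranged from 73.6 to 6960 kb, and 4650 kb in replicate 2, from 103 to 28200 kb. All coding genes had a median of 2320 kb in replicate 1 (10th to 90th percentile 297 to 8650 kb) and of 8330 kb in replicate 2 (994 to 37700 kb). In replicate 1 the genes followed the order Dnmt1, Uhrf1, Dnmt3a, Dnmt3l, Tet2, Eprn, Tet1 and Dnmt3b from the nearest to the farthest. In replicate 2 the order was Uhrf1, Dnmt3a, Dnmt1, Eprn, Dnmt3l, Tet2, Tet1 and Dnmt3b. Dnmt1, Uhrf1 and Dnmt3a were nearer than the other 5 genes in both lists, and Tet1 and Dnmt3b came last in both. The range between the replicates of Dnmt1 covered those of Uhrf1 and Dnmt3a, so its place among them was not resolved, whereas Uhrf1 was nearer than Dnmt3a in both lists without overlap. Among the other 5 genes, Eprn was nearer than Tet1 and Dnmt3b, and Dnmt3l nearer than Dnmt3b, without overlap. The range of Dnmt3l overlapped those of Tet2, Eprn and Tet1, that of Tet2 overlapped those of the other 4, and those of Tet1 and Dnmt3b overlapped, so these pairs were not ordered beyond the spread between replicates. Each range joins 2 lists of unequal size, and except for Dnmt3a and Eprn the nearest peaks were different sites. The ranges thus describe the lists and are no measure of error. Ctgf and Wwc2 were picked as examples for scale because they had a peak over the TSS in replicate 1. In that list, 138 coding genes had a peak within 5 kb of the TSS. Ctgf, a Hippo pathway target, had a peak of 61 tags with its summit 55 bp upstream of the TSS, and Wwc2, a relative of the Hippo regulator Kibra, had 75 tags and a summit 104 bp upstream. In replicate 2 their nearest peaks were 2452063 and 8494305 bp away.

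Dnmt3l (chr10:77504692-77526367, plus strand), the cofactor of de novo methylation, had no peak in the window in either list. Its annotated start lies inside Aire, an immune regulator gene on the opposite strand. Its nearest peak of replicate 1, 1866750 bp downstream, held 36 tags (1.59 CPM, tags per 1000000 unique tags, with a 95% Wilson interval of 1.15 to 2.20) and lay over the Mediator subunit gene Med16 and a U6 snRNA gene. The nearest peak of replicate 2, 5209571 bp downstream in an intron of the magnesium transporter gene Slc41a2, held 19 tags (1.27 CPM, 0.813 to 1.98). Both were weak members of their lists, at rank 318 of 447 and 146 of 154 by score. Between the Dnmt3l TSS and these peaks lay the TSSs of 57 and 181 other coding genes, and 43.4% and 37.0% of all coding genes had a nearer peak. Intervals on tags cover counting error only.

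Dnmt3a (chr12:3806007-3914443, plus strand), a catalytic de novo enzyme, had its nearest peak at the same place in both lists, which held for 1 other gene, Eprn. The peak lay 695198 bp upstream in replicate 1 (chr12:3109303-3110809) and 695292 bp upstream in replicate 2 (chr12:3109329-3110715), outside annotated genes near the start of the chromosome sequence. It held 356 tags in replicate 1 (15.7 CPM, 14.1 to 17.4) and 165 in replicate 2 (11.0 CPM, 9.47 to 12.8). These were the strongest peaks next to any of the 8 genes, with scores of 721.94 and 389.89 at ranks 5 and 9 of their lists. The nearest coding TSS was that of 1700012B15Rik, 126634 bp from the summit, and 6 coding TSSs lay between the peak and Dnmt3a. A nearer peak than that of Dnmt3a was found for 20.8% of coding genes in replicate 1 and 7.31% in replicate 2.

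Dnmt3b (chr2:153475186-153513466, plus strand), the other catalytic de novo enzyme, was the farthest from a peak in both lists. The nearest peaks lay 6955586 bp downstream in an intron of Gm14221 in replicate 1 (75 tags, score 93.75) and 28176530 bp downstream outside annotated genes in replicate 2 (46 tags, score 90.72). Of all coding genes, 86.5% and 82.5% had a nearer peak. The peak of replicate 2 held 1 CATTCC within 100 bp of its summit, and the nearest coding TSS was that of Polr3k, 53354 bp away.

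Dnmt1 (chr9:20711650-20757317, minus strand), the maintenance methyltransferase, had the shortest distance of the 8 genes. A peak of replicate 1 (chr9:20681805-20683732) lay 73585 bp downstream of its TSS and 27918 bp past the 3′ end of the gene, over Angptl6, which encodes a secreted angiopoietin-like factor. It held 66 tags (2.91 CPM, 2.29 to 3.70) with a fold enrichment of 4.64. Its summit was in the coding sequence of Angptl6, 1190 bp from the Angptl6 TSS, and 3 coding TSSs lay between it and the Dnmt1 TSS. The score of 50.83 was 0.82 above the lowest of the list, at rank 424 of 447. The nearest peak of replicate 2 to this site was 1306857 bp away, and the nearest to the Dnmt1 TSS was 1233272 bp upstream with 18 tags (1.20 CPM, 0.761 to 1.90). At the depth of replicate 2, 66 tags would correspond to 43.5, and 83 of its 154 peaks held fewer. Peaks are listed by a p-value against the local background, so this tag count does not tell whether the peak would be listed there. In replicate 1, 3.14% of coding genes had a nearer peak, the lowest share among the 8 genes in that list, against 12.3% in replicate 2.

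Uhrf1 (chr17:56442744-56462909, plus strand), the partner that recognises hemimethylated CpG for Dnmt1, had a peak within 500 kb in each list, at different places. In replicate 1 it lay 309994 bp downstream (chr17:56752738-56754937) over the genes of the mitochondrial protease Lonp1 and the ribosomal protein Rpl36. It held 95 tags (4.19 CPM, 3.42 to 5.12) at a fold enrichment of 3.79, and its score of 52.61 was 2.6 above the lowest of the list. In replicate 2 it lay 102828 bp upstream (chr17:56338799-56339916), in an intron of the dipeptidyl peptidase gene Dpp9. That peak held 34 tags (2.27 CPM, 1.63 to 3.17) at a fold enrichment of 11.25, and its score of 61.75 was 11.68 above the lowest. Neither peak was listed in the other replicate. At the depth of replicate 2 the first would give 62.6 tags, and 106 of the 154 peaks there held fewer. For the second, the corresponding numbers were 51.6 tags and 246 of the 447 peaks of replicate 1. Listing rests on a p-value against the local background, so these tag counts do not tell whether either peak would be listed. A nearer peak than that of Uhrf1 was found for 10.3% of coding genes in replicate 1 and 1.5% in replicate 2.

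The repeat tract printed for the Uhrf1 peak of replicate 2 had a period of 5 bases and ran over 79 bases, from chr17:56339430 to chr17:56339508. It held 14 CATTCC, and these were all of the motifs in the peak. Peaks with at least 5 CATTCC within 100 bp of the summit numbered 0 in replicate 1 and 2 in replicate 2. The tract is a simple repeat in which each unit overlaps the next, and whether its motifs took part in the signal was not tested. The summits of the other peaks within 500 kb, beside Dnmt1 and downstream of Uhrf1, had no CATTCC within 100 bp. Across the lists, 9.98% of the 411 peaks of replicate 1 and 13.2% of the 144 of replicate 2 had at least 1, and the summits at Ctgf and Wwc2 had 3 each.

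**Figure D2:**
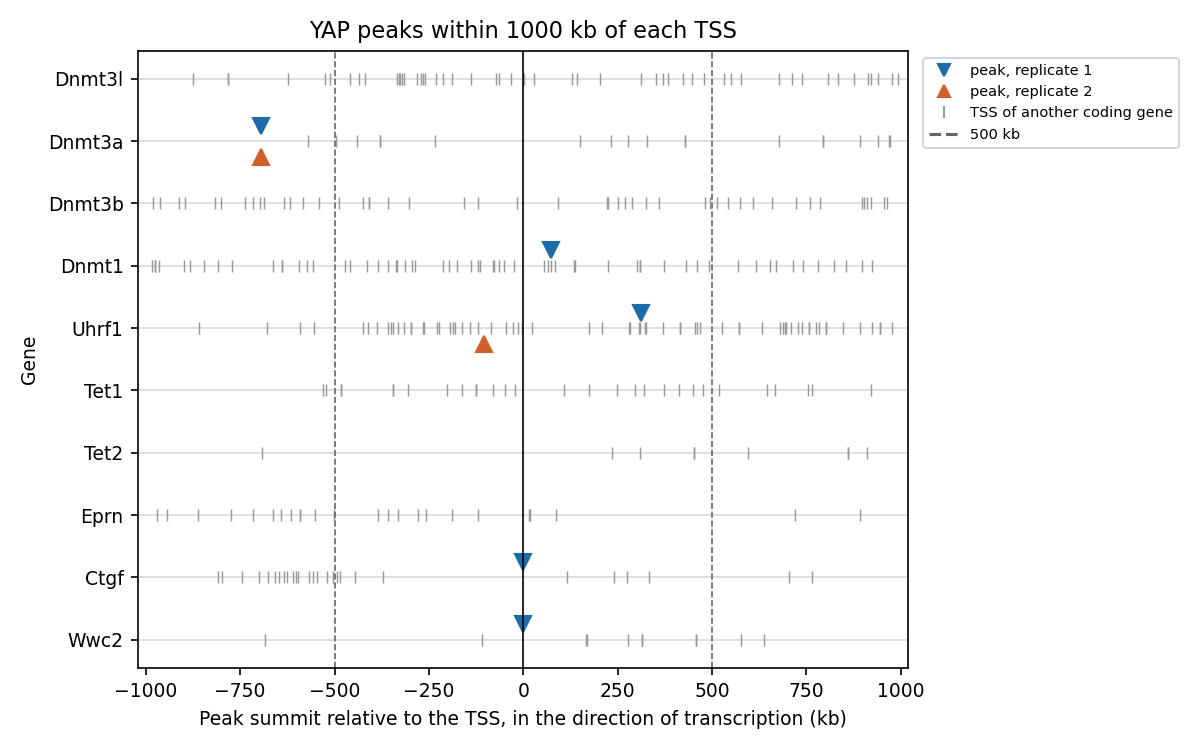
Peak summits within 1000 kb of the TSS of the 8 genes, Ctgf and Wwc2 in both replicate lists (triangles), in kb along the direction of transcription, with the TSSs of other coding genes as grey ticks and 500 kb as dashed lines. Of the 8 genes, Dnmt1 and Uhrf1 had peaks between the dashed lines, with edges at 73.6 kb downstream of Dnmt1 and 310 kb downstream of Uhrf1 in replicate 1 and 103 kb upstream of Uhrf1 in replicate 2.

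Tet1 (chr10:62267318-62361866, minus strand) and Tet2 (chr3:133126643-133207354, minus strand), the dioxygenases, had no peak in the window in either list. Tet1 had its nearest peaks 4659248 bp downstream in replicate 1 (82 tags, 3.61 CPM, 2.91 to 4.48) and 14335663 bp downstream in replicate 2 (20 tags, 1.34 CPM, 0.865 to 2.06). The nearest peak of Tet2 was 3496793 bp upstream in replicate 1 (35 tags, 1.54 CPM, 1.11 to 2.14) and 14107800 bp downstream in replicate 2 (19 tags, 1.27 CPM, 0.813 to 1.98). Between 64.2% and 74.4% of coding genes had a nearer peak than either Tet gene, in either list. The Tet1 peak of replicate 1 was the one with the least unique sequence, with 21.1% of its 25-base words found at a single place in the genome.

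Eprn was placed at chr13:73482113-73484832, minus strand, between the mitochondrial ribosomal protein gene Mrpl36, which ends at chr13:73469623, and Lpcat1, a lysophospholipid acyltransferase gene, which starts at chr13:73604645. Its promoter sequence matched this place alone. No peak of either list fell within 500 kb. The nearest peak was the same in both lists, 4092692 bp upstream in replicate 1 (chr13:77577524-77578953) and 4092735 bp upstream in replicate 2 (chr13:77577567-77578956), in an intron of 2210408I21Rik and beyond 41 coding TSSs. It held 146 tags in replicate 1 (6.43 CPM, 5.47 to 7.56) and 76 in replicate 2 (5.08 CPM, 4.06 to 6.36), and its fold enrichment of 20.03 and 16.18 was high in both lists. Of all coding genes, 70.0% in replicate 1 and 31.4% in replicate 2 had a nearer peak.

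**Figure D3:**
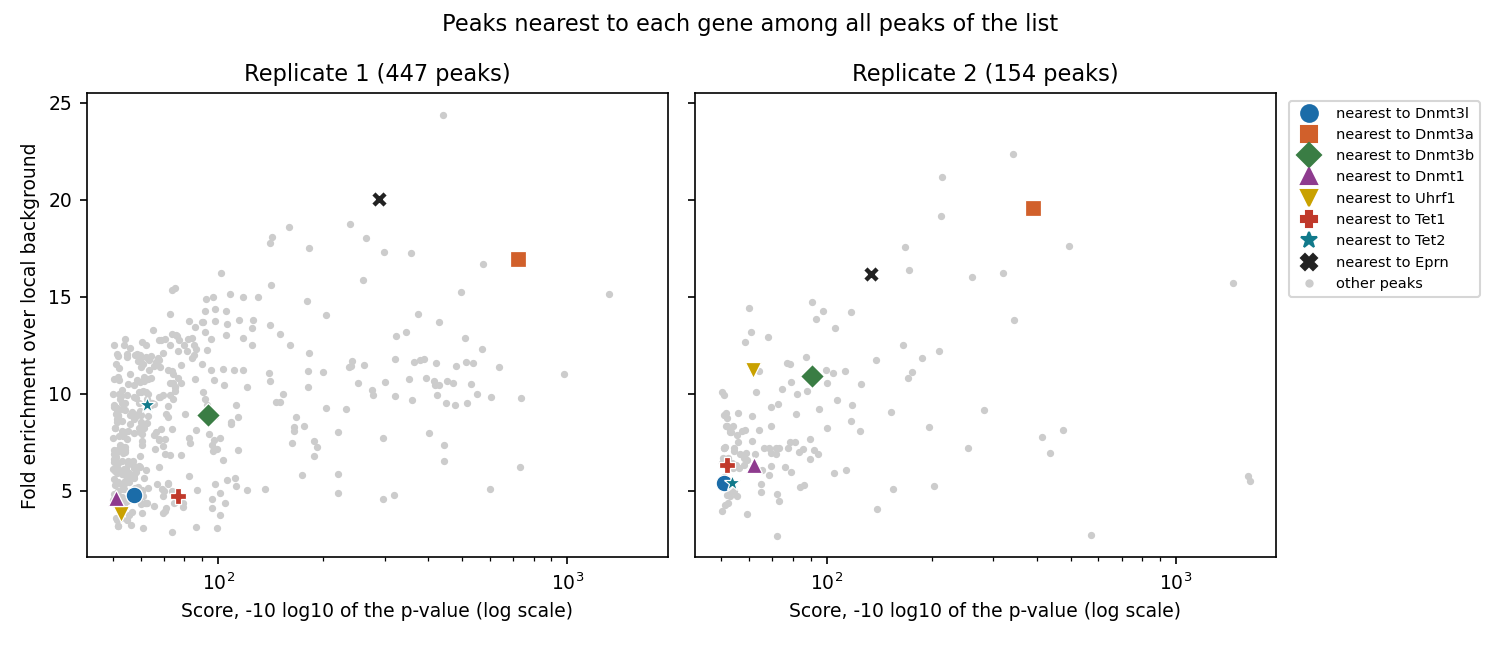
Score (log axis) against fold enrichment over the local background for all 447 peaks of replicate 1 and all 154 of replicate 2, with the peak nearest to each gene marked. The peaks nearest to Dnmt3a (scores 721.94 and 389.89) and Eprn (289.67 and 134.29) stood high in both lists, and those nearest to Dnmt1 and Uhrf1 in replicate 1 (50.83 and 52.61) stood at the lower edge.

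The peaks nearest to Dnmt3a and Eprn, the only ones of the 8 genes found at the same place in both lists, shared an identical run of 87 bases. It was looked for after the scores of the peaks were seen and is shown because the highest-scoring peaks next to these genes hold it. The run has the sequence of the mouse major satellite, the tandem repeat of pericentromeric heterochromatin.
Run at chr12:3109955-3110041, plus strand, and chr13:77578187-77578273, minus strand: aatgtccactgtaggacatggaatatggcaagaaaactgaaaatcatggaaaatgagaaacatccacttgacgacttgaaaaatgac
Of the 25-base words of the peaks, 63 were common to both, 4.25% of those of the Dnmt3a peak and 4.48% of those of the Eprn peak. At least 1 of these words was held by 5 of 411 peaks (1.22%) in replicate 1 and by 10 of 144 (6.94%) in replicate 2, counts that include the peaks nearest to Dnmt3a and Eprn, from which the words were taken. None of the other 6 genes had such a peak as its nearest. Reads with several alignments had been kept and weighted by the authors, and 44.1% of the 25-base words of the Dnmt3a peak and 91.1% of the Eprn peak were unique in the genome. The part of the repeat in the tags at either peak was not tested.

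The starts of most of the genes could be read uniquely. Within 500 bp of the TSS, the share of 25-base words found at a single place in the genome was 100% for Dnmt3l, Dnmt3a, Dnmt3b and Uhrf1, 98.2% for Dnmt1, 88.6% for Tet2 and 82.3% for Eprn. Tet1 was lower, at 47.5%, around the start of its gene record (chr10:62361866). A peak at that start could thus rest more on reads with several alignments than at the other genes. The RefSeq promoter window of Tet1 used below (chr10:62350023-62350322) lies elsewhere, inside the gene record, and its share of unique words was not computed.

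TEAD core motifs were about as frequent at these genes as at all genes. RefSeq (GRCm38.p6) lists 15 promoter windows for the 8 genes, each from 250 bases before to 50 after a TSS, and each matched mm9 at a single place. CATTCC on either strand was in 2 of them, a window of Dnmt3l at an internal TSS and the Uhrf1 window printed above, against 14.7% of all 32851 windows. The longer form ACATTCCA was in none, against 1.35% of all windows. Within 500 bp of the TSS, Uhrf1, Tet2 and Eprn had 1 CATTCC each, and 38.6% of coding genes had at least 1. In the 3 kb from the TSS on, Dnmt1 had 3, Dnmt3l, Dnmt3b, Uhrf1, Tet2 and Eprn had 2 each, Tet1 had 1 and Dnmt3a had 0, where 79.6% of coding genes had at least 1 and the mean was 1.64. The sites of Eprn began 207 and 1016 bases from its TSS. In the same 3 kb, Uhrf1 and Tet1 held 1 ACATTCCA each and the others of the 8 genes held none. The share of all coding genes with it there was not computed. A match to 6 bases describes the sequence and is no evidence of binding.

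CpG content varied widely among the promoters. The ratio of observed to expected CpG was 1.17 in the Tet2 window, above 99.3% of all windows, and 0.964 and 1.06 in the first 2 windows of Dnmt3a, above 92.0% and 96.7%. Dnmt3b (0.694) and Tet1 (0.607) were above the median of all windows, 0.384. Dnmt3l had 0.272, 0.219 and 0.114 in its 3 windows, all below that median and above 38.6%, 31.6% and 15.5% of windows. Eprn had 0.131, above 18.1% of windows. Uhrf1 had 0.472 and 0.959. Dnmt1 spread most widely, with 0.101, 0.5 and 0.91. All windows of the cofactor gene and the lncRNA thus lay below the median, while every other gene had at least 1 window above it. A gene with more windows has more chances to pass the median, and the lowest ratio among these windows, 0.101, was of Dnmt1.

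**Figure D4:**
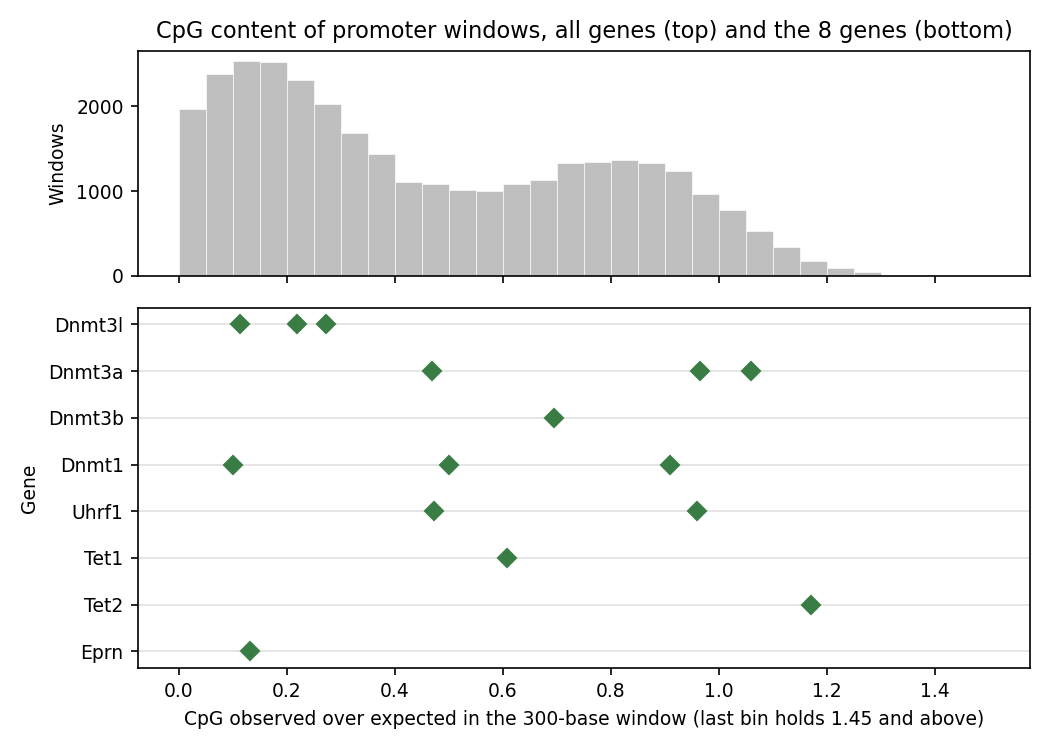
Ratio of observed to expected CpG in the RefSeq promoter windows (300 bases) of the 8 genes, over the distribution of all windows. The windows of Dnmt3l (0.114 to 0.272) and of Eprn (0.131) lay below the median of 0.384, and that of Tet2 (1.17) lay near the top.

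A further 35 genes, grouped by role, were linked to DNA methylation or, as the Lin28 genes, to Eprn. Of these, 9 (25.7%), Lin28a included, had a peak within 500 kb in replicate 1 and 0 in replicate 2. The background was 15.6% and 5.41%. None had a peak within 5 kb. Neighbouring genes that share a peak are each counted, so the 25.7% counts a peak more than once. Their median distance was 2170 kb in replicate 1 and 4130 kb in replicate 2. Of the genes for methylation and its targeting, 2 of 13 had a peak in the window, the KAP1 corepressor gene Trim28 at 9107 and 95792 bp and the Polycomb subunit gene Eed at 301422 bp. Of the genes for its removal, Apobec1 (5529 bp) and Dppa3 (16925 bp) are neighbours that share 1 peak of 60 tags in an intron of Gdf3 (chr6:122557991-122559503, score 52.83). Gadd45b, a stress-inducible gene linked to demethylation, had peaks at 30523 and 251713 bp. Dppa3, placed in this group by its link to demethylation, protects the maternal genome from it, and Apobec1 is a cytidine deaminase.

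Among the readers of methylation, 2 of 7 had a peak in the window, Zbtb33, which encodes Kaiso, at 8882 bp (34 tags, score 66.21) and the NuRD subunit gene Mbd3 at 489639 bp. The Mbd3 peak was the one over Med16 and U6 that was also nearest to Dnmt3l. The methyl donor genes had 0 of 3, and of the Lin28 genes, whose RNA-binding products act downstream of Eprn, Lin28a had a peak at 234659 bp while Lin28b had its nearest in replicate 1 at 2040 kb. The 9 distinct peaks of these genes were all from replicate 1, and 0 of them were in both lists.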

How the data were processed

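Per the labels and the study's methods, the authors mapped reads to mm9 with Bowtie, kept reads with several alignments weighted by the inverse of their number, and called peaks in each replicate with MACS. The deposited lists give, for each peak, its position, the count of tags, a score derived from the negative log10 of the p-value and the fold enrichment, a ratio to the local background. Per the file headers, the p-value cutoff was 1.00e-05 and no control file was used. Tag counts were divided by the deposited unique tags (95% Wilson intervals, scipy 1.17.1). TSSs came from GENCODE vM1 for mm9, as the 5′ end of the gene record. Eprn, for which no such record was used, was placed by an exact match of its RefSeq promoter and given its RefSeq length. Distance ran from the TSS to the nearest peak edge, and lists shared a peak at an overlap of 1 bp. Motifs were searched with Python 3.11.15 and pandas 2.3.3. No test was made, since the genes are single named items. Distances and motif search were tested on simulated data, in which 0 of 2000 distances differed and 200 of 200 planted motifs were found. The genes and lists were chosen with earlier results of these data known. The 8 genes, Ctgf and Wwc2, the further listed genes with a peak within 500 kb, and the coding gene nearest to each peak were named. An item in the list of other genes is counted in its totals but not reported here. The expression values under YAP knockdown and overexpression were not used here. Alternatives were stricter scores and folds, other windows and start sites, summits, single lists, and other motif windows.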

Additional observations from a re-analysis of the deposited data

How the results depend on the processing

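The median distance of the 8 genes to a peak of either list, 2680 kb, rose to 7570 kb with peaks of a score of at least 100, and ran from 2680 to 4650 kb when replicates were left out in turn. The count of genes with a peak within 500 kb, 2, fell to 0 at a score of at least 100 and when a peak had to be in both lists, and to 1 at a fold enrichment of at least 5, and it was 0, 1 and 3 in windows of 5, 100 and 1000 kb. It ran from 1 to 2 when replicates were left out, since Dnmt1 rests on replicate 1 alone. The share of coding genes, 17.4%, was 4.69% at a score of at least 100, 0.711%, 4.66% and 30.3% in the same windows, and ran from 5.41% to 15.6% when replicates were left out. Promoters of 2 genes held CATTCC, of 0 the longer motif, and 3 genes did within 500 bp of the TSS. Of 48 distances of single genes under an alternative, 32 moved by less than the spread between replicates, and leaving out peaks or a list can only lengthen a distance. Leaving out a list either keeps a distance or moves it by that spread itself, so these outcomes were fixed in advance. The spread was wide for some genes, and the change of Tet1 from 4660 to 9400 kb at a score of at least 100 fell within it. The 32 is thus no measure of robustness. With all tags as the total, the median CPM at the nearest peaks of replicate 1 fell from 3.46 to 2.83. The smaller list of replicate 2 and the cutoff of the lists limit what could be seen, and the cause of the difference between lists was not tested. No paired analysis was possible because no result came from a test between groups and the input samples were not analysed here.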
